A study of Saccharomyces cerevisiae with 5 samples.

Results

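The yeast strain BY_DEH++ was set against the strain BY_DEH+, both grown on DEH, by cap analysis of gene expression (CAGE), a method that sequences RNA from its capped 5′ end and therefore counts transcripts by start site. DEH, the monosaccharide left when alginate of brown seaweed is fully cut, was the carbon source at 1% (w/v) in 10 mL of HC-LN-based medium shaken at 30 °C. The BY_DEH++ culture was inoculated at an optical density (OD600) of 0.05 and taken at 0.55 after 2 days, and the BY_DEH+ culture was inoculated at 0.2 and taken at 0.63 after 3 days. The study also holds a glucose culture of each strain, grown overnight to an OD600 of 0.95 in BY_DEH++ and 0.91 in BY_DEH+, and a mannitol culture of BY_DEH++ taken at 0.79 after 1 day. The strains of Saccharomyces cerevisiae are given by name alone, and the alleles or added genes that each of them carries are not given in the sources used here. The labels do not say whether each name stands for 1 clone.

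A gene's value is the sum, in counts per 1000000 reads of the library (CPM), of the start clusters that the deposited table assigns to it. The genes compared were those with 10 CPM or more in either DEH library, 4815 of 5009 genes with a cluster. Of them, 4656 reached 10 CPM in both DEH libraries, 38 in BY_DEH++ alone and 121 in BY_DEH+ alone. A gene that reached it in 1 library alone can only be higher in that library. The difference of a gene is the log2 ratio of CPM + 1 in BY_DEH++ over CPM + 1 in BY_DEH+, which understates the difference of genes with few counts. Each strain had 1 DEH library, so the differences were not checked by replicates and carry no p-value, and strain, culture time, density and library cannot be told apart. Genes are called by fold alone, at 4-fold or more, and members of gene lists are counted at 2-fold or more. Ratios are of CPM and carry 95% counting intervals, which cover counting error only.

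The DEH libraries held about 19900000 reads in BY_DEH++ and 10700000 reads in BY_DEH+, and the other 3 libraries 9400000 to 13300000, rounded. A value of 10 CPM rested on 199 reads in BY_DEH++ and on 107 in BY_DEH+, and values below about 0.5 CPM were listed at 0. Clusters assigned to no gene took 4.13% of the CPM in BY_DEH++ and 6.20% in BY_DEH+.

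In dividing yeast, the kinases TORC1 and PKA keep the genes of ribosomes and their assembly active and hold the stress genes driven by the transcription factors Msn2 and Msn4 low. When nutrients run short that balance turns, and cells build reserves, antioxidant enzymes, small heat shock proteins and a thicker wall. Separate regulators answer to single nutrients: Pho4 to phosphate, Aft1 to iron, Gcn4 to amino acids and the GATA factors to nitrogen. Late in division, enzymes of the cell wall free the daughter cell from its mother.

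In DEH, 57 genes (1.18% of those compared) were called higher in BY_DEH++ and 76 (1.58%) lower. The largest ratios were those of ASP3-3 and YLR157W-B, which share a cluster whose first bases recur in the genome. Among the next were genes of daughter cell separation, phosphate and iron uptake and ammonium transport. The genes with the lowest ratios included those of stress proteins, second copies of pentose phosphate enzymes and enzymes of fatty acid oxidation. At 2-fold, 251 genes (5.21%) lay higher and 409 (8.49%) lower, and 4155 genes (86.3%) lay within 2-fold. The log2 ratios had a median of -0.23, with the lower and upper quartile at -0.57 and 0.17. Median-of-ratios scaling moved this median by 0.23 and turned the split to 77 higher and 52 lower at 4-fold and to 418 higher and 245 lower at 2-fold, so list medians are also given relative to the median of all genes. The members nearest the limit lay at log2 ratios of 2.01 and -2.0 inside it and 1.99 and -1.99 outside it.

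**Figure D1:**
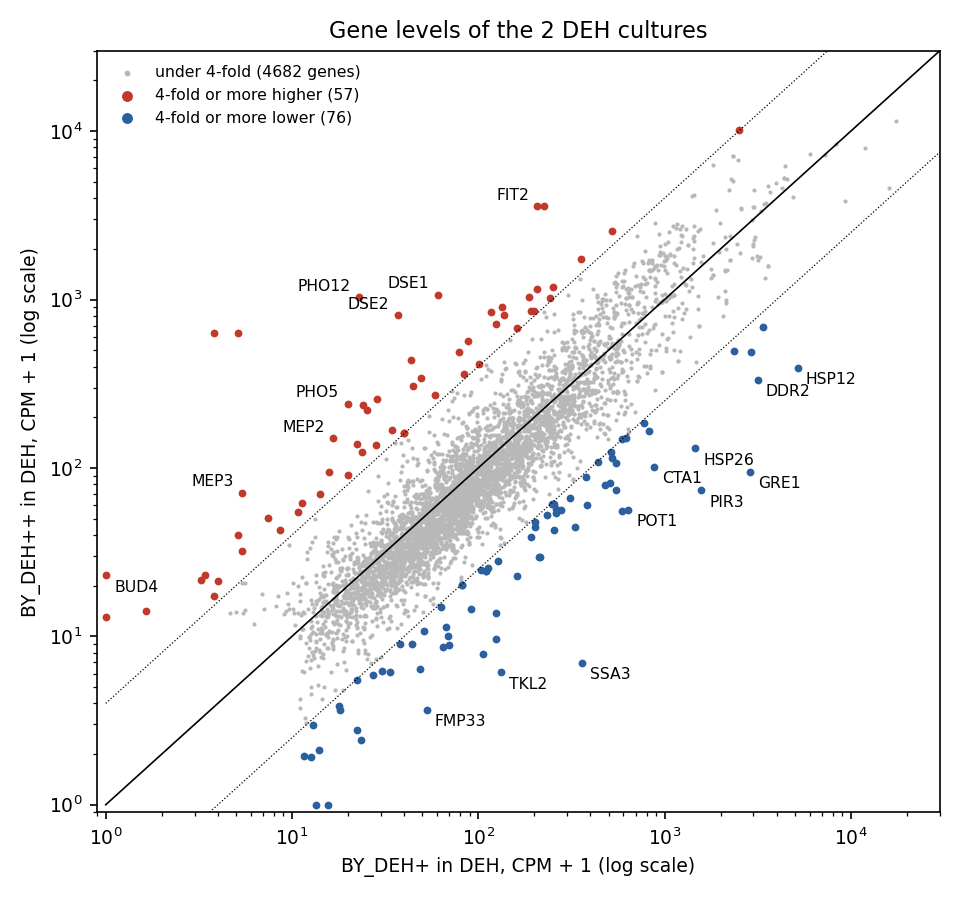
Gene levels in the BY_DEH++ DEH library (vertical axis) against the BY_DEH+ DEH library (horizontal axis), as CPM + 1 on log scales; each point is a gene, the solid line marks equal levels and the dotted lines 4-fold. The 57 genes above the upper dotted line (red) include PHO12, DSE1, DSE2 and FIT2, and the 76 below the lower one (blue) include SSA3, GRE1 and HSP12.

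The genes with the highest CPM included near-equal and differing levels. ALD4, the mitochondrial aldehyde dehydrogenase that turns acetaldehyde into acetate, stood at 11501 CPM in BY_DEH++ and 17516 CPM in BY_DEH+. ADH2, the alcohol dehydrogenase that oxidises ethanol, stood at 7979 CPM in BY_DEH++ and 11865 CPM in BY_DEH+, and ADH1, which forms ethanol, at 7215 CPM in BY_DEH++ and 7230 CPM in BY_DEH+. TEF2, an elongation factor gene, stood at 7354 CPM in BY_DEH++ and 6032 CPM in BY_DEH+, and SPO24 at 8364 CPM in BY_DEH++ and 8359 CPM in BY_DEH+. TIP1, a wall protein gene, stood at 5224 CPM in BY_DEH++ and 4542 CPM in BY_DEH+, and ALD6, the cytosolic aldehyde dehydrogenase gene, at 4062 CPM in BY_DEH++ and 4899 CPM in BY_DEH+. Cell wall genes in this group went both ways: SED1, a wall protein abundant in resting cells, stood at 4572 CPM in BY_DEH++ and 16117 CPM in BY_DEH+, whereas CCW12, a mannoprotein of growing cells, stood at 6307 CPM in BY_DEH++ and 1820 CPM in BY_DEH+. HSP150 stood at 3845 CPM in BY_DEH++ and 9298 CPM in BY_DEH+, and FIT3, a mannoprotein of iron uptake, at 10109 CPM in BY_DEH++ and 2502 CPM in BY_DEH+. AGE1 and YDR524W-A, which share their clusters, had 7155 CPM and 7156 CPM in BY_DEH++, against 2316 CPM and 2318 CPM in BY_DEH+. Their main cluster lies 812.5 bp upstream of the AGE1 coding start, and YDR524W-A was not matched to the annotation. Which gene these reads come from is therefore uncertain.

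Genes that separate mother and daughter were among the largest differences. At the 2-fold limit 15 of 33 measured cell cycle genes stood higher and 2 lower, with a median log2 ratio of 0.66, which is 0.89 above that of all genes. DSE2, a glucanase-like protein of the daughter cell wall (chromosome VIII, 385510 to 386487), had 811 CPM in BY_DEH++ and 35.97 CPM in BY_DEH+ in DEH, a ratio of 22.5 (95% counting interval 20.4 to 25). Its level was 1729 CPM in BY_DEH++ and 705 CPM in BY_DEH+ in glucose, and 509 CPM in mannitol. The BY_DEH+ DEH culture was thus the low library of the 5.

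DSE1, a daughter-specific protein of wall metabolism (chromosome V, 407342 to 409063), had 1069.6 CPM in BY_DEH++ and 59.7 CPM in BY_DEH+, a ratio of 17.9 (16.6 to 19.4). In glucose it had 524 CPM in BY_DEH++ and 356 CPM in BY_DEH+, and in mannitol 137 CPM. EGT2, a wall endoglucanase expressed in early G1, had 439 CPM in BY_DEH++ and 42.7 CPM in BY_DEH+. SCW11, a wall glucanase, had 304 CPM in BY_DEH++ and 43.5 CPM in BY_DEH+, and CTS1, the chitinase that digests the septum, 1178 CPM in BY_DEH++ and 251 CPM in BY_DEH+. All of these enzymes act on the wall between mother and daughter.

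A set of 10 daughter separation genes, put together after these values were seen, had 9 members 4-fold or more higher. The remaining member, AMN1, which ends the exit from mitosis, had 230.3 CPM in BY_DEH++ and 139.9 CPM in BY_DEH+. PRY3 and SUN4, which code for secreted wall proteins, had ratios of 10.2 (9.0 to 11.7) and 9.31 (8.28 to 10.5). In glucose the log2 ratios of the 10 genes ran between 0.24 and 1.29, so all had the same sign there with smaller values.

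Several other cell cycle genes had low levels in BY_DEH+. The B-type cyclin gene CLB1 had 22.1 CPM in BY_DEH++ and 2.43 CPM in BY_DEH+, and CLB2 had 19.7 CPM in BY_DEH++ and 4.39 CPM in BY_DEH+. SWI5 had 31.0 CPM in BY_DEH++ and 4.39 CPM in BY_DEH+, and HO, the mating-type switching endonuclease gene that Swi5 activates in mother cells, 20.7 CPM in BY_DEH++ and 2.24 CPM in BY_DEH+. These are low levels, and the ratio of HO, for example, was 9.23 with a counting interval of 6.11 to 14.6. BUD4, needed for axial budding, had 22.03 CPM in BY_DEH++ and was listed at 0 in BY_DEH+, against 19.98 to 26.1 CPM in the other 3 libraries.

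Not all cell cycle genes were higher. RNR3, a ribonucleotide reductase gene of DNA damage and stress, had 1.10 CPM in BY_DEH++ and 12.9 CPM in BY_DEH+, with 76.8% of its CPM in a cluster shared with FIS1. SWI4, a factor of the G1 to S step, had 11.1 CPM in BY_DEH++ and 23.7 CPM in BY_DEH+. Among 11 histone genes 4 were 2-fold or more higher and none lower, with a median log2 ratio of 0.68. HTA2 had 219.9 CPM in BY_DEH++ and 24.2 CPM in BY_DEH+, and its divergent neighbour HTB2 569 CPM in BY_DEH++ and 87.2 CPM in BY_DEH+, whereas the second H2A gene, HTA1, had 3521 CPM in BY_DEH++ and 2999 CPM in BY_DEH+, nearly all in clusters shared with ADK1. A smaller share of cells in a stage of division and less RNA per cell cannot be told apart in these bulk libraries.

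Most genes of the protein synthesis machinery lay within 2-fold, with list medians above that of all genes. Of 81 cytosolic large-subunit ribosomal protein genes 12 were 2-fold or more higher and none lower, and of 56 small-subunit genes 14 were higher and none lower, with medians 0.90 and 1.00 above that of all genes on the log2 scale. The log2 ratio was above 0 in 74 and 51 of them. Together these genes took 14.1% of gene CPM in BY_DEH++ and 8.74% in BY_DEH+. In glucose they took 3.20% in BY_DEH++ and 3.98% in BY_DEH+, and in mannitol 23.8%.

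RPL9A, the large-subunit gene with the largest difference, had 673 CPM in BY_DEH++ and 160.2 CPM in BY_DEH+. RPL3 had 1376 CPM in BY_DEH++ and 550.3 CPM in BY_DEH+, RPP0 2721 CPM in BY_DEH++ and 1114 CPM in BY_DEH+ and RPL4A 1646 CPM in BY_DEH++ and 685 CPM in BY_DEH+. RPL22B, a member on the other side, had 133 CPM in BY_DEH++ and 258 CPM in BY_DEH+, all of it in clusters shared with other genes. In the small subunit, RPS26B had 585 CPM in BY_DEH++ and 216 CPM in BY_DEH+, and RPS14B had 351 CPM in BY_DEH++ and 628 CPM in BY_DEH+.

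Ribosome biogenesis, the assembly line of nucleolar factors, had 11 of 70 genes 2-fold or more higher and none lower, with a median 0.88 above all genes. Under median-of-ratios scaling 26 were higher. NOP7, of the large-subunit assembly path, had 269 CPM in BY_DEH++ and 83.0 CPM in BY_DEH+, NOP56, a core protein of box C/D particles, 649 CPM in BY_DEH++ and 233 CPM in BY_DEH+, and NOP1, the fibrillarin that methylates ribosomal RNA, 411 CPM in BY_DEH++ and 158 CPM in BY_DEH+. Of 26 translation factor genes 3 were higher, YEF3, TEF4 and EFT1, which all serve elongation. YEF3 had 6703 CPM in BY_DEH++ and 2466 CPM in BY_DEH+. The 70 mitochondrial ribosomal protein genes stood apart from the cytosolic ones, with none past 2-fold and a median 0.09 below all genes. The 2 DEH cultures also differed in growth: by the labels' densities, the BY_DEH++ culture made 3.46 doublings, or 1.73 a day, and the BY_DEH+ culture 1.66 doublings, or 0.55 a day. The part of growth in the result was not tested.

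**Figure D2:**
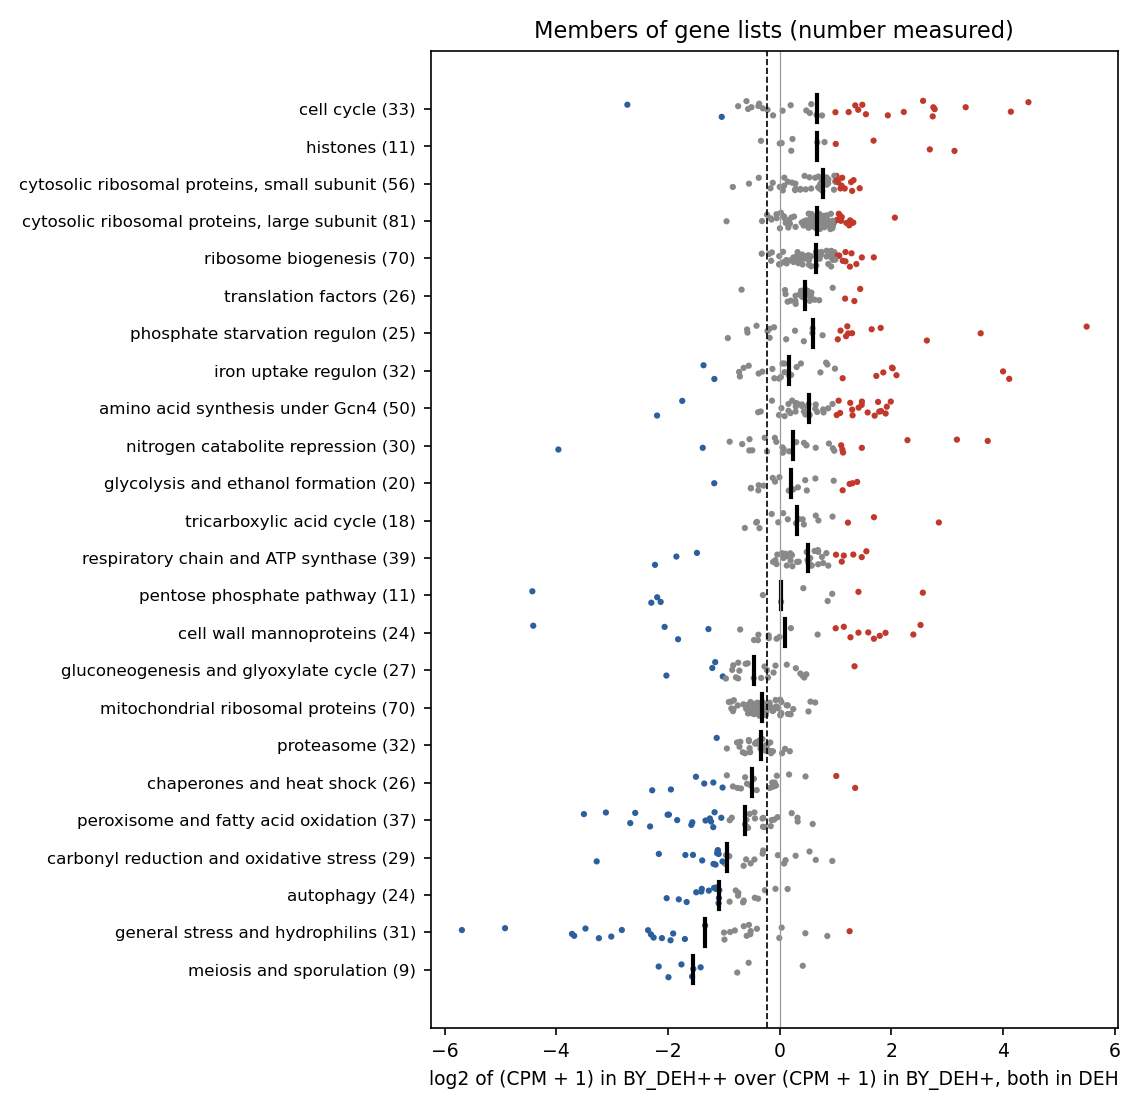
Log2 ratio of BY_DEH++ over BY_DEH+ in DEH for the measured members of 24 gene lists, with the number measured in brackets; each point is a gene, red at 2-fold or more higher and blue at 2-fold or more lower. Short black bars are list medians, and the dashed line is the median of all genes at -0.23; the stress, autophagy and meiosis lists lie farthest to the left.

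Part of the phosphate regulon was higher in BY_DEH++. Pho4 drives secreted acid phosphatases, the transporters Pho84 and Pho89 and the VTC complex, which makes polyphosphate, when phosphate is short. Of 25 measured genes of this regulon 11 were 2-fold or more higher and none lower, with a median 0.82 above all genes. PHO12, an acid phosphatase gene (chromosome VIII, 552099 to 553502), had 1028 CPM in BY_DEH++ and 21.8 CPM in BY_DEH+ in DEH, a ratio of 47.2 (41.5 to 54.0). In glucose it had 380.4 CPM in BY_DEH++ and 277 CPM in BY_DEH+, and in mannitol 2.49 CPM. Its first 50 bases also occur at PHO11, which the deposited table lists at 0.85 CPM in BY_DEH++ and 0.56 CPM in BY_DEH+, so which of these 2 genes the reads come from is uncertain.

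PHO5, the main repressible acid phosphatase gene (chromosome II, 429548 to 430951), had 240.1 CPM in BY_DEH++ and 18.9 CPM in BY_DEH+, a ratio of 12.7 (11.0 to 14.7), with 332 to 712 CPM in the other 3 libraries. PHM6 had 138 CPM in BY_DEH++ and 21.4 CPM in BY_DEH+, and VTC3 257 CPM in BY_DEH++ and 72.7 CPM in BY_DEH+. The transporter genes differed less, with 5169 CPM in BY_DEH++ and 2264 CPM in BY_DEH+ for PHO89 and 1640 CPM in BY_DEH++ and 769 CPM in BY_DEH+ for PHO84. The regulators lay close together: PHO4 had 77.8 CPM in BY_DEH++ and 90.5 CPM in BY_DEH+. On the other side PHM8 had 44.1 CPM in BY_DEH++ and 84.6 CPM in BY_DEH+, and PHO2 had 42.7 CPM in BY_DEH++ and 64.5 CPM in BY_DEH+.

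Stretches of PHO5 (chrII:431111-431360, minus strand) and PHO12 (chrVIII:551612-551861, plus strand) that run into their start clusters are shown. CACGTG, the letters that Pho4 and Cbf1 recognise, is in capitals. Each window is 250 bases of the RefSeq genome R64, read on the gene's strand up to the midpoint of its main start cluster.
PHO5: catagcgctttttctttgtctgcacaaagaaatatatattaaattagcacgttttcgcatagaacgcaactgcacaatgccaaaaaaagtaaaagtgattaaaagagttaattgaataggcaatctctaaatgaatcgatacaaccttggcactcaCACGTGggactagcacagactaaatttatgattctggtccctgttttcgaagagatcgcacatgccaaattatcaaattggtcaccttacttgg
PHO12: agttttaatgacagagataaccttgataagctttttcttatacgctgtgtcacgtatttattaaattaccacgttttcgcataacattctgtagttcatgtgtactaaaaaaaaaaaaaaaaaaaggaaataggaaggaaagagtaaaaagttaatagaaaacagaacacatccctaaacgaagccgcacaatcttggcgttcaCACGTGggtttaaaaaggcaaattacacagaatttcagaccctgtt
Each held 1 match, which lies inside the start cluster (430949 to 431271 for PHO5 and 551637 to 552087 for PHO12). CACGTG, which reads the same on both strands, was in 12 of the 25 windows of the regulon and in 195 of all 4815 (4.05%).

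Some iron uptake genes were higher in BY_DEH++. At the 2-fold limit 8 of 32 measured genes stood higher and 2 lower, and the median was 0.39 above all genes. FIT2, a wall mannoprotein that holds siderophore iron (chromosome XV, 1059531 to 1059992), had 3586 CPM in BY_DEH++ and 206 CPM in BY_DEH+ in DEH, a ratio of 17.4 (16.6 to 18.1). It had 12455 CPM in BY_DEH++ and 11063 CPM in BY_DEH+ in glucose, and 708 CPM in mannitol. The deposited table assigns the same cluster to FRE3, a reductase gene more than 1000 bp away, whose own clusters held 3.77 CPM in BY_DEH++ and 16.5 CPM in BY_DEH+, so the call of FRE3 rests on FIT2.

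ARN2, a siderophore transporter gene, had 852 CPM in BY_DEH++ and 199 CPM in BY_DEH+, and ENB1, another, 276 CPM in BY_DEH++ and 75.5 CPM in BY_DEH+. FET3, the copper oxidase of the high-affinity iron system, had 2369 CPM in BY_DEH++ and 712 CPM in BY_DEH+, and its partner FTR1 279.8 CPM in BY_DEH++ and 157 CPM in BY_DEH+. BIO5, listed in the regulon for biotin uptake, shares all of its clusters with BIO4, and the pair had 161 CPM in BY_DEH++ and 38.8 CPM in BY_DEH+. ISU1, a scaffold for iron-sulfur clusters that uses iron, had 799 CPM in BY_DEH++ and 2055 CPM in BY_DEH+. CTH1, an RNA-binding protein that speeds the decay of transcripts of iron-using proteins, had 51.0 CPM in BY_DEH++ and 116 CPM in BY_DEH+. AFT1 itself had 86.7 CPM in BY_DEH++ and 94.9 CPM in BY_DEH+.

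The FIT2 window (chrXV:1059188-1059437, plus strand, R64) is shown with TGCACCC, the letters that Aft1 recognises, or its reverse complement GGGTGCA in capitals.
FIT2: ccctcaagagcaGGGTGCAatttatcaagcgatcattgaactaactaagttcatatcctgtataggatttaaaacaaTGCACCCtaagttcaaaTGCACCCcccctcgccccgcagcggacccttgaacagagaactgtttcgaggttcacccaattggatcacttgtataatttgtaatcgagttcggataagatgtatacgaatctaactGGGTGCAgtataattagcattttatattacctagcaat
It held 4 matches, most of them inside the start cluster, which runs from 1059204 to 1059672. The motif was in 13 of the 32 windows of the list, of which FIT2 and FRE3 are 1 window, and in 60 of all 4815 (1.25%).

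Some nitrogen genes were higher in BY_DEH++ as well. Of 30 genes of poor nitrogen sources 7 were 2-fold or more higher and 2 lower, and 11 had log2 ratios below 0. The lower ones were UGA2 and ASP3-1, a gene with recurring copies. MEP3, an ammonium permease gene (chromosome XVI, 810984 to 812453), had 70.4 CPM in BY_DEH++ and 4.39 CPM in BY_DEH+ in DEH, a ratio of 16.0 (11.98 to 21.9), and 49.8 to 58.5 CPM in the other 3 libraries. MEP2, the high-affinity ammonium permease and sensor, had 149 CPM in BY_DEH++ and 15.6 CPM in BY_DEH+, and MEP1 150.2 CPM in BY_DEH++ and 75.8 CPM in BY_DEH+. GDH1, the glutamate dehydrogenase that fixes ammonium in growing cells, had 2548 CPM in BY_DEH++ and 520.04 CPM in BY_DEH+. Its counterpart of respiring cells, GDH3, had 216 CPM in BY_DEH++ and 315 CPM in BY_DEH+. GAP1, the general amino acid permease, had 201 CPM in BY_DEH++ and 71.7 CPM in BY_DEH+, and UGA2, of the GABA pathway and mostly in a cluster shared with RCR1, 22.9 CPM in BY_DEH++ and 61.0 CPM in BY_DEH+.

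Amino acid synthesis under Gcn4 had 17 of 50 genes 2-fold or more higher and 2 lower, with a median 0.76 above all genes. Arginine genes led: ARG3 had 285 CPM in BY_DEH++ and 71.1 CPM in BY_DEH+, ARG1 1329 CPM in BY_DEH++ and 350.4 CPM in BY_DEH+ and ARG8 146 CPM in BY_DEH++ and 40.7 CPM in BY_DEH+. ARO8, an aromatic aminotransferase gene, had 409 CPM in BY_DEH++ and 109 CPM in BY_DEH+. The level of GCN4, which is controlled in translation, differed little, with 2380.3 CPM in BY_DEH++ and 2237 CPM in BY_DEH+. The 2 genes on the other side were SNZ1 and SNO1, neighbours that make vitamin B6 and come on in resting cells. SNZ1 had 113 CPM in BY_DEH++ and 520.04 CPM in BY_DEH+, and SNO1 15.5 CPM in BY_DEH++ and 54.2 CPM in BY_DEH+.

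ARG1, the arginine gene with the most CPM of these, is shown with TGACTC, the letters of a Gcn4 site, or its reverse complement GAGTCA in capitals (chrXV:218915-219164, plus strand, R64).
ARG1: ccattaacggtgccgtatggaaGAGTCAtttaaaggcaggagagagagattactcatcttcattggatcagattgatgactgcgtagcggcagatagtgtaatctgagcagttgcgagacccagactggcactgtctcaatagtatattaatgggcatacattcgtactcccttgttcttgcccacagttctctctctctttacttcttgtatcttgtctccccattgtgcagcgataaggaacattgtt
It held 1 match. The motif was in 31 of the 50 windows of the list and in 361 of all 4815 (7.5%).

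Of 18 tricarboxylic acid cycle genes 3 were 2-fold or more higher in BY_DEH++ and none lower. IDH2, a subunit of isocitrate dehydrogenase (chromosome XV, 580250 to 581359), had 841 CPM in BY_DEH++ and 116 CPM in BY_DEH+, a ratio of 7.27 (6.86 to 7.71). The other subunit, IDH1, had 825 CPM in BY_DEH++ and 255 CPM in BY_DEH+, and FUM1, fumarase, 1262 CPM in BY_DEH++ and 540.02 CPM in BY_DEH+. The rest of the cycle lay within 2-fold, for example KGD1 with 563 CPM in BY_DEH++ and 572 CPM in BY_DEH+, and SDH2 with 426 CPM in BY_DEH++ and 656 CPM in BY_DEH+.

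The respiratory chain and ATP synthase had 6 of 39 genes higher and 3 lower, with a median 0.73 above all genes. The catalytic subunits ATP1 and ATP2 had 1149.7 and 4139 CPM in BY_DEH++, against 414 and 1409 CPM in BY_DEH+, with ATP2 in clusters shared with another gene. The 2 cytochrome c genes went apart. CYC1, of aerobic cells, had 80.8 CPM in BY_DEH++ and 31.8 CPM in BY_DEH+, and CYC7, of low oxygen and stress, had 2.26 CPM in BY_DEH++ and 10.7 CPM in BY_DEH+. CYC7 just reached the limit of 10 CPM, in BY_DEH+ alone, so it could only come out lower. NDE2, an external NADH dehydrogenase, had 65.1 CPM in BY_DEH++ and 309 CPM in BY_DEH+.

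The pentose phosphate pathway, which makes NADPH and ribose, held 2 genes higher and 4 lower, and 3 of its pairs of paralogues, singled out after their values were seen, went opposite ways. The transketolase gene TKL1 had 813 CPM in BY_DEH++ and 136 CPM in BY_DEH+, a ratio of 5.95 (5.64 to 6.29). Its paralogue TKL2 (chromosome II, 474392 to 476437) had 5.13 CPM in BY_DEH++ and 131 CPM in BY_DEH+, a level 25.5 times (20.9 to 31.5) as high in BY_DEH+. In glucose TKL2 had 5.95 CPM in BY_DEH++ and 30.1 CPM in BY_DEH+, the same direction with a smaller difference.

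GND1, the main 6-phosphogluconate dehydrogenase gene, had 488 CPM in BY_DEH++ and 183 CPM in BY_DEH+, whereas GND2 had 37.97 CPM in BY_DEH++ and 190.5 CPM in BY_DEH+. The transaldolase gene TAL1 had 883 CPM in BY_DEH++ and 657 CPM in BY_DEH+, and its paralogue NQM1, a gene of resting cells, 55.9 CPM in BY_DEH++ and 259 CPM in BY_DEH+. The first-named gene of each pair codes for the main form of the enzyme. Beyond this pathway the plasma membrane proton pump genes split likewise, with PMA1 at 976 CPM in BY_DEH++ and 459 CPM in BY_DEH+, and PMA2 at 78.2 CPM in BY_DEH++ and 479.96 CPM in BY_DEH+.

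Glycolysis had 4 of 20 genes higher, HXK2, ENO2, CDC19 and TDH2, and 1 lower. HXK2, the hexokinase of glucose-grown cells, had 2432 CPM in BY_DEH++ and 928 CPM in BY_DEH+, and HXK1, its paralogue of other carbon sources, had 499 CPM in BY_DEH++ and 1124 CPM in BY_DEH+. CDC19, the main pyruvate kinase gene, had 2522 CPM in BY_DEH++ and 1057 CPM in BY_DEH+. In the gluconeogenesis and glyoxylate list 1 of 27 genes was higher and 4 were lower, with a median 0.24 below all genes. Under median-of-ratios scaling 1 was higher and 1 lower. ACS1, which makes acetyl-CoA from acetate, had 958 CPM in BY_DEH++ and 2132 CPM in BY_DEH+. The committing enzymes differed less: PCK1 had 1989 CPM in BY_DEH++ and 2143 CPM in BY_DEH+, and the isocitrate lyase gene ICL1 943 CPM in BY_DEH++ and 709 CPM in BY_DEH+. In the 2-methylcitrate cycle, which burns propionyl-CoA, CIT3 had 230.3 CPM in BY_DEH++ and 624 CPM in BY_DEH+, PDH1 had 421 CPM in BY_DEH++ and 372 CPM in BY_DEH+, and ICL2 had 229.5 CPM in BY_DEH++ and 313 CPM in BY_DEH+.

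A large part of the peroxisomal genes was lower in BY_DEH++. In yeast the peroxisome is the only site of fatty acid oxidation, and Adr1, Oaf1 and Pip2 switch on its enzymes away from glucose. Of 37 measured genes 16 were 2-fold or more lower and none higher, with a median log2 ratio of -0.62. POT1, the thiolase of the last step (chromosome IX, 40191 to 41444), had 55.4 CPM in BY_DEH++ and 639 CPM in BY_DEH+, a level 11.5 times (10.8 to 12.3) as high in BY_DEH+. In glucose POT1 had 7.99 CPM in BY_DEH++ and 13.7 CPM in BY_DEH+, and in mannitol 6.21 CPM. Both DEH cultures thus stood above the other libraries in this gene.

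Enzymes of the other steps were lower too. POX1, the acyl-CoA oxidase of the first step, had 74.1 CPM in BY_DEH++ and 267 CPM in BY_DEH+, and FOX2, of the middle steps, had 147 CPM in BY_DEH++ and 593 CPM in BY_DEH+. CTA1, the peroxisomal catalase that removes the peroxide so made, had 100.8 CPM in BY_DEH++ and 878 CPM in BY_DEH+. DCI1, a peroxisomal protein related to enoyl-CoA isomerase, had 41.7 CPM in BY_DEH++ and 255 CPM in BY_DEH+, and FAT3, of fatty acid uptake, 59.4 CPM in BY_DEH++ and 384 CPM in BY_DEH+. SPS19, the peroxisomal 2,4-dienoyl-CoA reductase gene, had 164 CPM in BY_DEH++ and 824 CPM in BY_DEH+. The gene of the activator, ADR1, lay on the other side, with 462 CPM in BY_DEH++ and 306 CPM in BY_DEH+.

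Many general stress genes were lower in BY_DEH++, and they are 12 of the 76 genes called lower. Of 31 general stress and hydrophilin genes 16 were 2-fold or more lower in BY_DEH++, 12 of them 4-fold or more, and 1 was higher, with a median log2 ratio of -1.33, which is 1.11 below all genes. SSA3, an inducible Hsp70 chaperone gene (chromosome II, 84499 to 86448), had 5.98 CPM in BY_DEH++ and 359 CPM in BY_DEH+, a level 60.05 times (50 to 72.6) as high in BY_DEH+. In glucose SSA3 had 3.09 CPM in BY_DEH++ and 57.3 CPM in BY_DEH+. GRE1, a hydrophilin that protects drying or salt-stressed cells (chromosome XVI, 128632 to 129138), had 93.9 CPM in BY_DEH++ and 2863 CPM in BY_DEH+, against 57.8 to 124 CPM in the other 3 libraries. Only the BY_DEH+ DEH library was high in GRE1.

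HSP12, a small membrane-bound heat shock protein and a classical Msn2 and Msn4 gene (chromosome VI, 107256 to 107585), had 392.2 CPM in BY_DEH++ and 5172 CPM in BY_DEH+, a level 13.2 times (12.9 to 13.5) as high in BY_DEH+. In glucose HSP12 had 330.5 CPM in BY_DEH++ and 1703 CPM in BY_DEH+, and in mannitol 62.4 CPM. HSP26, a small heat shock chaperone, had 130.1 CPM in BY_DEH++ and 1458 CPM in BY_DEH+, and DDR2, a short stress protein, had 334 CPM in BY_DEH++ and 3154 CPM in BY_DEH+. CTT1, the cytosolic catalase, had 1.76 CPM in BY_DEH++ and 21.3 CPM in BY_DEH+. PAI3, an inhibitor of the vacuolar protease A, had 8.70 CPM in BY_DEH++ and 123 CPM in BY_DEH+. The genes of the activators differed less, with 52.9 CPM in BY_DEH++ and 77.5 CPM in BY_DEH+ for MSN2 and 23.1 CPM in BY_DEH++ and 35.2 CPM in BY_DEH+ for MSN4.

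Of this list 4 members had log2 ratios above 0, and HOR7 alone passed 2-fold. HOR7 had 1038 CPM in BY_DEH++ and 435 CPM in BY_DEH+, and YGP1, a secreted glycoprotein of starved cells, had 145 CPM in BY_DEH++ and 79.8 CPM in BY_DEH+. Among 26 chaperone genes 6 were lower and 2 higher. HSP82 had 153 CPM in BY_DEH++ and 433 CPM in BY_DEH+, whereas SSB1, an Hsp70 that sits on translating ribosomes, had 1434 CPM in BY_DEH++ and 561 CPM in BY_DEH+. Reductases and oxidative stress genes had 12 of 29 lower and none higher, with a median 0.71 below all genes. Under median-of-ratios scaling 5 were lower and 1 higher. AAD10, which codes for a putative aryl-alcohol dehydrogenase, had 1.41 CPM in BY_DEH++ and 22.3 CPM in BY_DEH+. GPX1, a glutathione peroxidase, had 51.5 CPM in BY_DEH++ and 234 CPM in BY_DEH+, and GTT2, a glutathione transferase, 109 CPM in BY_DEH++ and 352 CPM in BY_DEH+. ADH6, an alcohol dehydrogenase of wide substrate range, had 930.4 CPM in BY_DEH++ and 483 CPM in BY_DEH+.

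The windows of HSP12 (chrVI:106812-107061, plus strand) and DDR2 (chrXV:231837-232086, minus strand) are shown with AGGGG, the core of the stress response element that Msn2 and Msn4 bind, or its reverse complement CCCCT in capitals. They were read from R64 as above.
HSP12: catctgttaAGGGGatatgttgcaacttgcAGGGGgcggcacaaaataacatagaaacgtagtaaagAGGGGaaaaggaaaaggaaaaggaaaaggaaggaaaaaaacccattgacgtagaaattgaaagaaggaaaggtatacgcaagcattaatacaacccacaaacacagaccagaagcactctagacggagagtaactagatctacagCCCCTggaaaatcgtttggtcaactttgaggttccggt
DDR2: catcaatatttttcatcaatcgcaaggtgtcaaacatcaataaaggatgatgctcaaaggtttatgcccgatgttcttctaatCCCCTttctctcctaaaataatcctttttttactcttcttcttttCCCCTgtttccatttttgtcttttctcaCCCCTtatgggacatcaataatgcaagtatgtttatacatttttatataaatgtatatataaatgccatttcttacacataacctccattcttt
HSP12 held 4 matches and DDR2 held 3, and the window of GRE1 held none. Most matches of HSP12 lie inside its start cluster (106840 to 107285), as does the last match of DDR2 (cluster 231742 to 231931). The motif was in 17 of the 31 windows of the list and in 968 of all 4815 (20.1%).

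Autophagy and sporulation lists also had more lower than higher members. Of 24 autophagy genes 13 were 2-fold or more lower and none higher, with a median 0.86 below all genes. Under median-of-ratios scaling 7 were lower. ATG8, the ubiquitin-like protein that coats autophagosomes, had 107 CPM in BY_DEH++ and 438 CPM in BY_DEH+, and ATG9, a membrane protein of the pathway, had 6.99 CPM in BY_DEH++ and 21.5 CPM in BY_DEH+. The proteasome, the other route of protein breakdown, lay near the median of all genes with 1 of 32 genes lower, its activator RPN4, at 190 CPM in BY_DEH++ and 416 CPM in BY_DEH+. Only 9 of 19 meiosis genes reached 10 CPM, and 6 of them were 2-fold or more lower. SPS100, a spore wall gene, had 43.8 CPM in BY_DEH++ and 199.6 CPM in BY_DEH+, and SPO20, a protein of spore membrane formation, had 37.9 CPM in BY_DEH++ and 130.3 CPM in BY_DEH+, against 0.74 CPM or less in glucose and mannitol. The 6 sporulation markers with a cluster summed to 95.2 CPM in BY_DEH++ and 269 CPM in BY_DEH+ in DEH, and to 100.3 to 151 CPM in the other libraries. SPS100 is 1 of these markers, and its 199.6 CPM made up most of the BY_DEH+ sum in DEH, beside 43.8 CPM in BY_DEH++. NDT80 and DIT2, which define middle and late sporulation, had no cluster in the deposited table, so no level can be given for them. The part of sporulating cells in these differences was not tested.

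The cell wall list was divided. At the 2-fold limit 10 of 24 measured mannoprotein and wall enzyme genes stood higher and 4 lower. CIS3, a wall protein linked to glucan, had 714 CPM in BY_DEH++ and 123 CPM in BY_DEH+, UTR2, a chitin transglycosylase, 124 CPM in BY_DEH++ and 22.8 CPM in BY_DEH+, and GAS1, the main glucanosyltransferase, 969 CPM in BY_DEH++ and 436 CPM in BY_DEH+. The PIR family was split: PIR1 had 842 CPM in BY_DEH++ and 349 CPM in BY_DEH+, whereas PIR3 (chromosome XI, 144401 to 145378) had 72.8 CPM in BY_DEH++ and 1569 CPM in BY_DEH+, a level 21.6 times (20.4 to 22.8) as high in BY_DEH+. PST1, a wall protein made when the wall is damaged, had 149 CPM in BY_DEH++ and 623 CPM in BY_DEH+. Of 14 seripauperins with a cluster, small wall proteins of low oxygen and cold, only 7 reached 10 CPM in either DEH library. All 7 had log2 ratios below 0, and 4 of them were 2-fold or more lower. Any that reached 10 CPM in BY_DEH+ alone could only come out lower.

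Mating type genes served to check the strains against each other. Of 8 genes on the list of a cells none of the 7 measured passed 2-fold. MFA1, an a-factor gene with most of its CPM in shared clusters, had 61.4 CPM in BY_DEH++ and 117.8 CPM in BY_DEH+. MFA2, the other a-factor gene, had 82.8 CPM in BY_DEH++ and 124 CPM in BY_DEH+. STE2, the alpha factor receptor gene, had 9.45 CPM in BY_DEH++ and 13.1 CPM in BY_DEH+. STE6, which exports a-factor, had 14.7 CPM in BY_DEH++ and 21.8 CPM in BY_DEH+. AXL1, a protease that processes a-factor but is not specific to a cells, had 84.2 CPM in BY_DEH++ and 123 CPM in BY_DEH+. ASG7 and BAR1, which share their clusters with other genes, had 147 and 34.0 CPM in BY_DEH++, against 107 and 25.7 CPM in BY_DEH+, and AGA2 was listed at 0 in BY_DEH++ and at 1.31 CPM in BY_DEH+. Of the genes of alpha cells, MF(ALPHA)1, the alpha factor gene, had 1027 CPM in BY_DEH++ and 241 CPM in BY_DEH+, and STE3, the receptor for a-factor, had 101.1 CPM in BY_DEH++ and 38.1 CPM in BY_DEH+. SAG1 had 25.6 CPM in BY_DEH++ and 38.4 CPM in BY_DEH+, MF(ALPHA)2 3.17 CPM in BY_DEH++ and 1.4 CPM in BY_DEH+, and AFB1, in shared clusters, 247 CPM in BY_DEH++ and 166 CPM in BY_DEH+. In glucose MF(ALPHA)1 had 1592 CPM in BY_DEH++ and 1356 CPM in BY_DEH+, so the strains lay close there.

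Genes often deleted or used as markers in laboratory strains showed no case of a gene listed in 1 DEH culture and at 0 in the other. LYS2 and ADE2 were listed at 0 in both DEH libraries, and TRP1 had 3.32 CPM in BY_DEH++ and 7.38 CPM in BY_DEH+. LEU2 had 1066 CPM in BY_DEH++ and 430.4 CPM in BY_DEH+, and MET17 had 1989.7 CPM in BY_DEH++ and 1426 CPM in BY_DEH+. HIS3 and URA3 lie in clusters shared with DED1 and TIM9, with 1857 and 34.7 CPM in BY_DEH++, against 1075 and 36.1 CPM in BY_DEH+. GAL4 had 84.0 CPM in BY_DEH++ and 109.9 CPM in BY_DEH+.

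Some of the largest differences are uncertain. The cluster given to ASP3-3, a copy of the asparaginase II gene, and to YLR157W-B had 633 CPM in BY_DEH++, against 4.11 CPM for ASP3-3 and 2.80 CPM for YLR157W-B in BY_DEH+, and its first 50 bases occur 4 times in the genome. ASP3-1, another copy, was listed at 0 in BY_DEH++ and at 14.6 CPM in BY_DEH+. CUP1-1 and CUP1-2, identical copies of the metallothionein gene, had 1435 and 54.6 CPM in BY_DEH++, against 602 and 588 CPM in BY_DEH+, so reads cannot be placed on either copy. All of the CPM of CUP1-2 lies in clusters also given to CUP1-1, so the values of CUP1-1 already contain it. CUP1-2 is thus called lower, whereas CUP1-1, which covers both, was higher in BY_DEH++. ERR1, with 12.1 CPM in BY_DEH++ and listed at 0 in BY_DEH+, also recurs. SPS22 shares 99.2% of its CPM with APA1. POL4, a DNA polymerase gene, was listed at 0 in BY_DEH++ and at 12.4 CPM in BY_DEH+. FMP33, which codes for a putative mitochondrial protein, had 2.67 CPM in BY_DEH++ and 51.8 CPM in BY_DEH+, with no shared cluster. Of the genes called, 6 higher and 15 lower had most or all of their CPM in clusters given to several genes. The main cluster lay over 1000 bp from the coding start or on the other strand in FRE3, IRC10 and AAC3, and in 273 of 4782 genes overall (5.71%).

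The other 3 libraries place these differences, though the glucose and mannitol cultures also differ in density and time. Of the 57 genes higher in BY_DEH++, the BY_DEH+ DEH library was the lowest of the 5 in 44 (77.2%, against 11.0% of all genes), and the BY_DEH++ DEH library was the highest in 19 (33.3%, against 13.3%). Of the 76 genes lower in BY_DEH++, the BY_DEH+ DEH library was the highest of the 5 in 65 (85.5%, against 34.6% of all genes), and the BY_DEH++ DEH library the lowest in 23 (30.3%, against 16.5%). These shares use the DEH values that chose the genes, so they are a description.

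**Figure D3:**
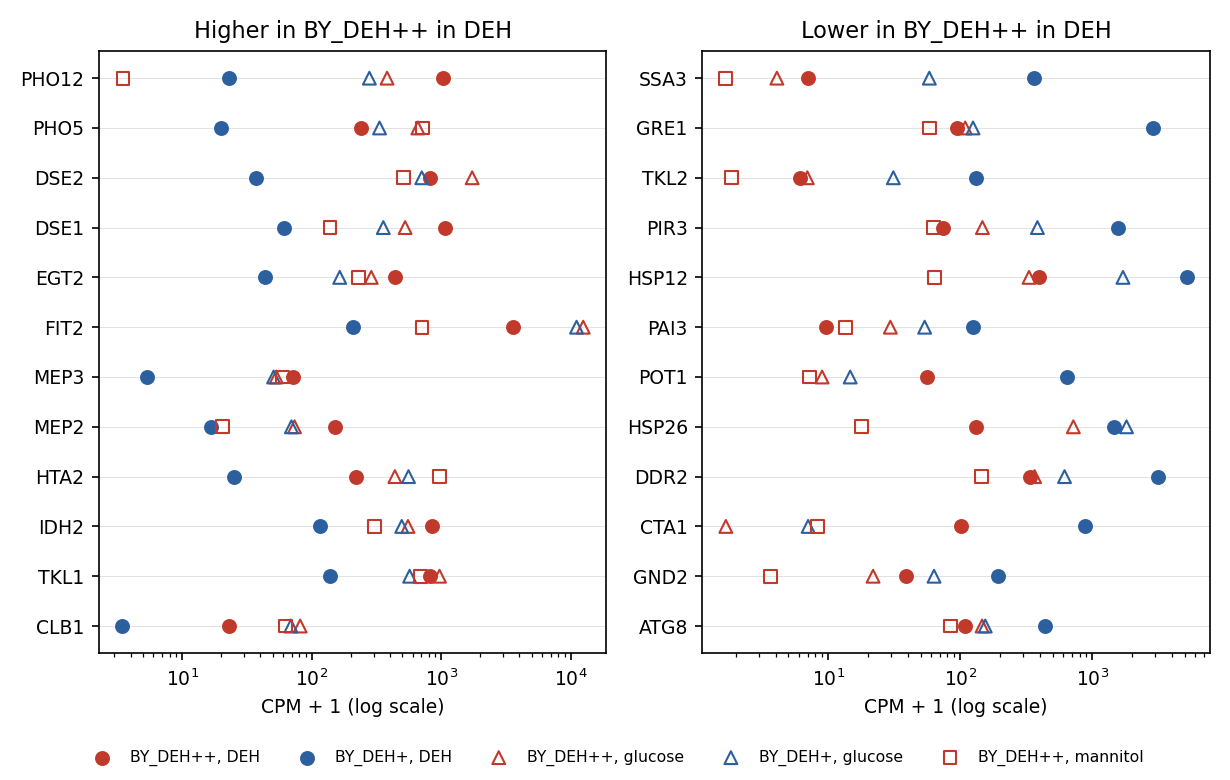
Levels (CPM + 1, log scale) of 12 genes higher and 12 genes lower in BY_DEH++ in DEH, in each of the 5 libraries; filled circles are the DEH cultures, triangles glucose and squares mannitol, with BY_DEH++ in red and BY_DEH+ in blue. In most of the rows the BY_DEH+ DEH library stands alone at the low end on the left, as at 35.97 CPM for DSE2, or at the high end on the right, as at 2863 CPM for GRE1.

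The strains differed less in glucose. With the same limits, 6 of 4836 genes (0.124%) passed 4-fold upward in BY_DEH++ in glucose and 11 (0.227%) downward. Of the 57 genes higher in DEH, 45 had the same sign in glucose and 5 were also 2-fold or more higher there, and of the 76 lower genes 60 had the same sign and 16 were also 2-fold or more lower. Among all genes compared in DEH, 27 (0.561%) were 2-fold or more higher in glucose and 46 (0.955%) lower. The median log2 ratio in glucose was 0.29 for the higher genes and -0.32 for the lower ones, beside -0.05 for all genes. Whether the strain difference itself differs between the media was not tested, as each has 1 library.

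Genes with the strain difference in both media included the Hsp70 genes SSA3 and SSA4 and the gene ZPS1. SSA4, a heat-inducible Hsp70 gene, had 9.75 CPM in BY_DEH++ and 50.3 CPM in BY_DEH+ in DEH, and 36.01 CPM in BY_DEH++ and 262 CPM in BY_DEH+ in glucose. ZPS1, a wall protein gene of the zinc regulon, had 907 CPM in BY_DEH++ and 132 CPM in BY_DEH+ in DEH, and 2345 CPM in BY_DEH++ and 252 CPM in BY_DEH+ in glucose. The phosphate transporter gene PHO89 had 3233 CPM in BY_DEH++ and 1044 CPM in BY_DEH+ in glucose, a log2 ratio of 1.63 there and 1.19 in DEH. FEX1, a fluoride exporter gene whose first 50 bases occur in 2 places, had 38.8 CPM in BY_DEH++ and 4.11 CPM in BY_DEH+ in DEH, and 54.1 CPM in BY_DEH++ and 10.6 CPM in BY_DEH+ in glucose. IDH2 and GRE1, by contrast, lay within 2-fold in glucose, with 552 CPM in BY_DEH++ and 494 CPM in BY_DEH+ for IDH2.

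**Figure D4:**
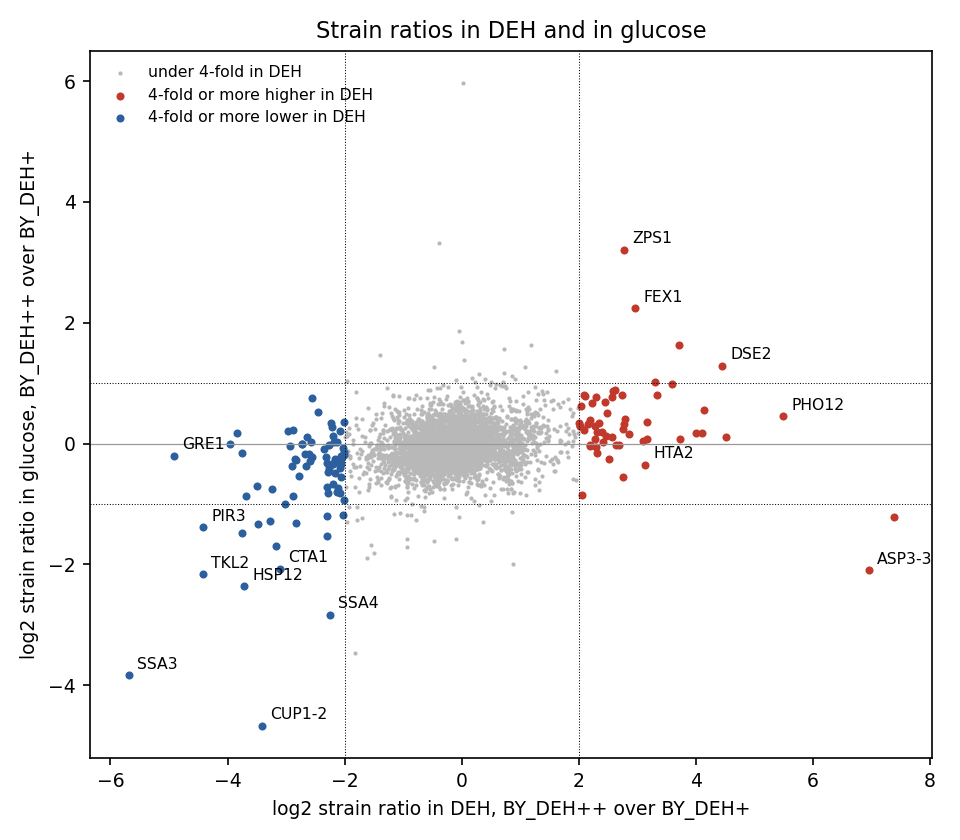
Log2 ratio of BY_DEH++ over BY_DEH+ in glucose (vertical axis) against the same ratio in DEH (horizontal axis); each point is a gene, with the 57 genes higher in DEH in red and the 76 lower in blue, and dotted lines at 4-fold in DEH and 2-fold in glucose. Most red and blue points lie near 0 on the vertical axis, while SSA3, HSP12 and ZPS1 lie far out on both axes and ASP3-3 lies on opposite sides.

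Because CAGE reads mark start sites, the use of alternative starts could be compared for 510 genes with more than 1 start cluster of 10 CPM or more and 20 CPM in both libraries. The main cluster's share of the CPM differed by 20 percentage points or more in 91 genes (17.8%), with 55 higher in BY_DEH++ (10.8%) and 36 lower (7.06%). Without regard to direction, the median absolute difference was 7.73 points. ASH1, a repressor of HO in daughter cells, had 95.2% of its CPM in the cluster before its coding sequence in BY_DEH++ and 35.3% in BY_DEH+, and a cluster inside the coding sequence held 2.05% in BY_DEH++ and 35.0% in BY_DEH+. AIM44, a bud neck protein, had 94.0% in BY_DEH++ and 27.5% in BY_DEH+, and its other cluster lies inside the coding sequence. FRK1, with 97.0% in BY_DEH++ and 41.4% in BY_DEH+, also has its other cluster inside the coding sequence, whereas that of DTD1 lies beyond the end of the gene. The main share of DTD1 was 100% in BY_DEH++ and 39.6% in BY_DEH+.

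ZPS1 and PIR3 used an upstream start instead. The main cluster of ZPS1, 70.5 bp before its coding start, held 93.0% of its CPM in BY_DEH++ and 37.3% in BY_DEH+, and the other lay 1078 bp upstream with 62.0 CPM in BY_DEH++ and 83.0 CPM in BY_DEH+. PIR3 was the reverse: its main cluster held 43.7% in BY_DEH++ and 96.4% in BY_DEH+, at 31.8 CPM in BY_DEH++ and 1512 CPM in BY_DEH+, while a cluster 816 bp upstream held 35.0 CPM in BY_DEH++ and 32.0 CPM in BY_DEH+. In both genes the far cluster thus differed much less between the strains than the near one. AMN1 used its near cluster, 322 bp upstream, for 82.8% of its CPM in BY_DEH++ and 31.0% in BY_DEH+, and the rest lay mostly 1271 bp upstream.

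**Figure D5:**
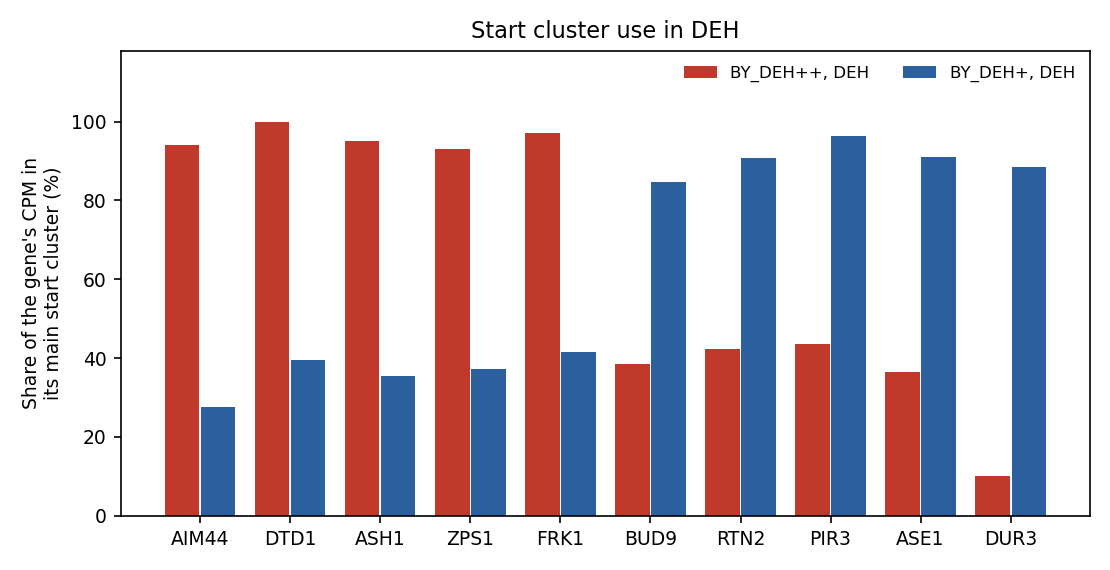
Share (%) of the CPM that lies in the main start cluster of a gene, as bars for BY_DEH++ (red) and BY_DEH+ (blue) in DEH, for the 5 genes with the largest difference in each direction, with 1 library a bar. ASH1 and AIM44 have main shares above 90% in BY_DEH++ only, and PIR3, RTN2 and ASE1 in BY_DEH+ only.

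DUR3, a urea and polyamine transporter gene, showed the largest shift by this measure, with 10.2% of its single-gene clusters in the one 789.5 bp upstream in BY_DEH++ and 88.6% in BY_DEH+, but most of its CPM lies in clusters shared with other genes. RTN2, a reticulon of the endoplasmic reticulum, had 42.4% of its CPM in its main cluster in BY_DEH++ and 90.7% in BY_DEH+. BUD9, of bud site choice, and ASE1, of the spindle midzone, had main clusters inside or beyond the coding sequence, with shares of 38.6% and 36.6% in BY_DEH++ against 84.7% and 91.0% in BY_DEH+. Their clusters nearer the coding start, 432 and 104.5 bp before it, held 72.4 and 19.5 CPM in BY_DEH++, against 11.5 and 3.27 CPM in BY_DEH+. Upstream clusters were thus the higher ones in BY_DEH++ for both genes.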

How the data were processed

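CAGE libraries were made from 5 cultures of 2 strains, 1 library each, and the sources used here give no replicate. The deposited table lists signal per start cluster, which the authors scaled to counts per 1000000 reads (CPM) of each library. Per the submitters' processing notes, BWA, HISAT2 and mm9 were named, without role or version. The mm9 label is a mouse build, whereas the cluster names in the deposited table are sequences of the yeast build R64, whose genome and annotation from RefSeq were used. The clustering tool and the rule that assigned genes are not given in the sources used here.

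The table had 29960 lines for 27176 distinct clusters, of which 2713 were given to several genes and 6821 to no gene. Each distinct cluster was taken once per gene and summed, and a cluster given to several genes counts for each of them. The authors' CPM values were whole multiples of 1 step per library in 99.5% to 100% of cases (within 0.0055 CPM), which gave the reads behind each value and the 95% intervals from an exact binomial split. A pseudocount of 1 CPM and a minimum of 10 CPM in either DEH library were used. The design had assumed CPM as the unit; because shared clusters repeat, the column sums exceed what CPM allows and were recorded as signal. Of the genes, 4782 were matched to the annotation by name. Promoter windows were 250 bases before the midpoint of the main cluster, so they can include part of that cluster.

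The members and gene lists were chosen with earlier results of these data known. Named genes are the 15 highest and 15 lowest ratios among those called, up to 4 members of a described list in its larger direction and up to 2 in the other, all mating type, 2-methylcitrate and marker genes, the 5 largest start shifts each way, and the 10 highest CPM in either DEH library. The regulators, the further pathway steps and the opposed pairs were added after their values were seen. Alternatives covered pseudocount, filter, scaling, cluster choice, a binomial test of reads and an additive limma fit. Python 3.11.15, numpy 2.4.6, pandas 2.3.3, scipy 1.17.1, matplotlib 3.10.9, R 4.3.3 and limma 3.58.1 were used. The fold calls were run on simulated reads that held counting error only, so the run says nothing about differences between cultures.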

Additional observations from a re-analysis of the deposited data

Results flagged for a closer look

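The cluster given to ASP3-3 and YLR157W-B had opposite strain ratios in the 2 media. In DEH the log2 ratio of BY_DEH++ over BY_DEH+ was 6.95 for ASP3-3 and 7.38 for YLR157W-B, and in glucose it was -2.10 and -1.22. ASP3-3 had 633 CPM in BY_DEH++ and 4.11 CPM in BY_DEH+ in DEH, and 1.66 CPM in BY_DEH++ and 10.4 CPM in BY_DEH+ in glucose. The sequence occurs 4 times in the genome, and the difference between the media was not tested.

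Clusters given to no gene entered no comparison above. Of 544 such clusters with 10 CPM or more in either DEH library, 6 were 4-fold or more higher in BY_DEH++ and 75 were 4-fold or more lower, with a median log2 ratio of -0.88. Among the 4815 genes compared, 57 (1.18%) were higher and 76 (1.58%) lower at the same limit. The 2 sets are unlike, as these are single clusters and genes are sums of clusters. A cluster that reached 10 CPM in 1 library alone can only be higher there.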

How the results depend on the processing

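No paired analysis was possible because no group has a second library and the labels number no replicates. Most counts moved by less than 1.5 times: across the other alternatives the 57 genes higher at 4-fold lay between 44 and 77, and the 76 lower between 51 and 98. With a pseudocount of 10 CPM they fell to 37 and 40, and the genes 2-fold or more different in glucose in the same direction to 2 of the higher and 9 of the lower ones, beside 5 and 16. Median-of-ratios scaling gave 418 genes higher and 245 lower at 2-fold, with 34 large-subunit and 28 small-subunit ribosomal protein genes among the higher ones, beside 12 and 14. It also gave 4 RNA polymerase I and III genes higher, beside 0, 4 pentose phosphate genes higher, beside 2, 1 iron gene lower, beside 2, and 1 cell cycle gene lower, beside 2. Limits of 10 and 30 points for start use gave 211 and 41 genes, beside 91 at 20 points. FRE3 turned to a log2 ratio of -1.88 without the cluster it shares with FIT2, both with single-gene clusters only and with each cluster counted once, an alternative added after seeing the data. With each cluster counted once, SPC24, which shares a cluster with SHH3, turned to 0.30. No list median that lay 0.5 or more from that of all genes changed side under any alternative run. Scaling shifts all genes nearly alike, so the scaling alternatives could hardly change these distances. Of 583 such distances under alternatives, over all lists, 29 moved by more than 0.2 on the log2 scale. An additive limma fit of strain and medium over the 5 libraries, with 1 residual degree of freedom, called 0 of 4904 genes at an adjusted p under 0.05 and 302 at an unadjusted p under 0.05. The spread in the limma fit is the departure from additivity of strain and medium, not that of replicates. A binomial test of the reads passed 3984 genes (82.7%), all those called included. That test compares the libraries, not the strains. Depth limits low genes: at 10 CPM the interval ran from 8.67 to 11.5 CPM in BY_DEH++ and from 8.19 to 12.1 CPM in BY_DEH+.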

Other observations

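Counts in further gene lists were small, and the medians of the thiamine and sulfate lists lay near that of all genes (-0.10 and -0.04 from it). Of 21 thiamine and vitamin B6 genes 4 were 2-fold or more lower in BY_DEH++ and 1 higher: THI4, which makes the thiazole part of thiamine, had 5.38 CPM in BY_DEH++ and 47.5 CPM in BY_DEH+, and THI5 had 105 CPM in BY_DEH++ and 274 CPM in BY_DEH+. Of 29 sulfate and methionine genes 6 were lower and 1 higher: the activator gene MET32 had 10.8 CPM in BY_DEH++ and 37.7 CPM in BY_DEH+, and SAM1, which makes S-adenosylmethionine, had 660.0 CPM in BY_DEH++ and 267 CPM in BY_DEH+. Of 22 drug efflux genes 5 were lower and 2 higher. Under median-of-ratios scaling the sulfate and the drug efflux list each had 2 higher and 2 lower, and the thiamine list 2 higher and 3 lower. PDR18 stood at 6.94 CPM in BY_DEH++ and 23.6 CPM in BY_DEH+ and the multidrug transporter gene QDR2 stood at 129.6 CPM in BY_DEH++ and 43.0 CPM in BY_DEH+.

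Single genes of other pathways also passed 4-fold. URA1, dihydroorotate dehydrogenase of pyrimidine synthesis, had 1730.01 CPM in BY_DEH++ and 356 CPM in BY_DEH+, ERG4, of the last step of ergosterol synthesis, 411 CPM in BY_DEH++ and 99.3 CPM in BY_DEH+, and YHB1, a flavohaemoglobin that removes nitric oxide, 1155 CPM in BY_DEH++ and 205 CPM in BY_DEH+. MIG2, a repressor of glucose-grown cells, had 2.87 CPM in BY_DEH++ and 16.8 CPM in BY_DEH+, against 80.7 CPM in BY_DEH++ and 129 CPM in BY_DEH+ in glucose. Of 22 genes of fatty acid and phospholipid synthesis none passed 2-fold either way, and of 9 hexose transporter genes only HXT5, of slow growing cells, did, with 169 CPM in BY_DEH++ and 635 CPM in BY_DEH+.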
